A study of Bos taurus with 19 samples.

Results

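Genes of the cell cycle and of DNA replication were followed through the bovine theca interna, the vascular inner layer of the follicle wall, whose steroidogenic cells secrete androgens. The list held 37 genes, 13 of DNA replication, 23 of mitosis and the G1 cyclin CCND2, and each gene was read from the brightest of the probe sets that carry its symbol alone. A probe set was found for 32 of them (12 replication genes, 19 mitotic genes and CCND2) out of 9156 genes with such a probe set on the array. No probe set carries the symbol of MCM2, MKI67, TOP2A, CENPE or KIF11, and these 5 genes are not described further.

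RNA from the theca interna of single follicles was hybridised to 19 Affymetrix bovine arrays of 1 channel. The ovaries were those of non-pregnant Bos taurus heifers, and granulosa cells were scraped off before the theca was dissected. The small follicles were healthy with basal granulosa cells of rounded shape (5 arrays), healthy with columnar ones (5 arrays) or atretic, that is degenerating (5 arrays), and 4 arrays held large healthy follicles. Small follicles measured 3 to 5 mm and large ones over 9 mm. The records name no treatment of animals or follicles, and the groups differ in size and health as found in ovaries from the abattoir. The sources used here do not say which follicles came from the same animal, so the p-values measure the spread between follicles, some of which may share an animal.

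The RNA was not prepared in the same way for every group. In the sample records, RNA of large follicles was taken with Trizol and RNeasy columns, that of small healthy follicles with RNeasy mini columns and that of atretic follicles with RNAqueous Micro columns, and 2 to 5 µg was labelled for the healthy follicles against 250 ng for the atretic ones. The published methods describe the same preparation for small and large healthy follicles, with Trizol and RNeasy columns. The amount labelled according to them is below both amounts in the records. The 2 sources thus disagree on the extraction of small follicles and on the amount labelled, and this was not settled here. Preparation and group cannot be told apart in any comparison below that involves large or atretic follicles, whereas rounded and columnar follicles share their preparation.

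A dividing cell duplicates its DNA in S phase and separates the copies in mitosis. Origins of replication are loaded with the MCM helicase, cyclin E with its kinase CDK2 starts S phase, the PCNA clamp holds the polymerases on the DNA, and ribonucleotide reductase and thymidylate synthase supply the nucleotides. Cyclin A and cyclin B with CDK1 then drive entry into mitosis, the checkpoint at the kinetochores holds the chromosomes until all are attached, and the anaphase-promoting complex destroys cyclin B to end it. Transcripts of both groups are made mainly in cycling cells, and the theca of a growing follicle is a tissue in which cells divide as the follicle wall expands. In RNA of whole tissue, fewer dividing cells and less RNA per cell cannot be told apart.

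All signals below are log2 values, so a difference of -1 is a halving, and a value of 3 is the detection threshold of the study's methods. Over all probe sets any pair of arrays correlated at 0.948 to 0.995. Poly-A control transcripts, added during labelling, averaged 5.17 to 5.75 on the large arrays, 3.90 to 4.50 on the small healthy and 4.13 to 4.75 on the atretic ones. All 6 steroidogenic theca markers were over the threshold, from LHCGR at 3.73 to INSL3 at 12 in small healthy follicles (INSL3 averaged 11.6 in atretic ones). The granulosa markers FSHR and FOXL2 stayed under the filter on low signals, while CYP19A1 and 8 others of the 11 granulosa markers passed it in at least 1 type of follicle. In small healthy follicles the granulosa markers averaged from 2.06 (FSHR) to 9.92 (INHA). Passing the threshold therefore does not tell theca RNA from granulosa RNA.

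The cell cycle genes fell in small atretic follicles. All 32 were lower than in the 10 small healthy follicles at an adjusted p under 0.05, and 28 were also at least 2-fold lower, which is the threshold for a call. The called genes were 9 of 12 replication genes and 19 of 19 mitotic genes. Of all 15470 probe sets tested, 1.6% were called lower and 15.1% were lower by adjusted p alone. The median log2 difference was -1.97 over the 32 genes, -1.26 over the replication genes and -2.34 over the mitotic genes, against 0.01 over all probe sets. For 22 of the 32 genes, 4 of replication and 18 of mitosis, every atretic follicle lay below every small healthy follicle, a pattern held by 1.67% of all probe sets.

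**Figure D1:**
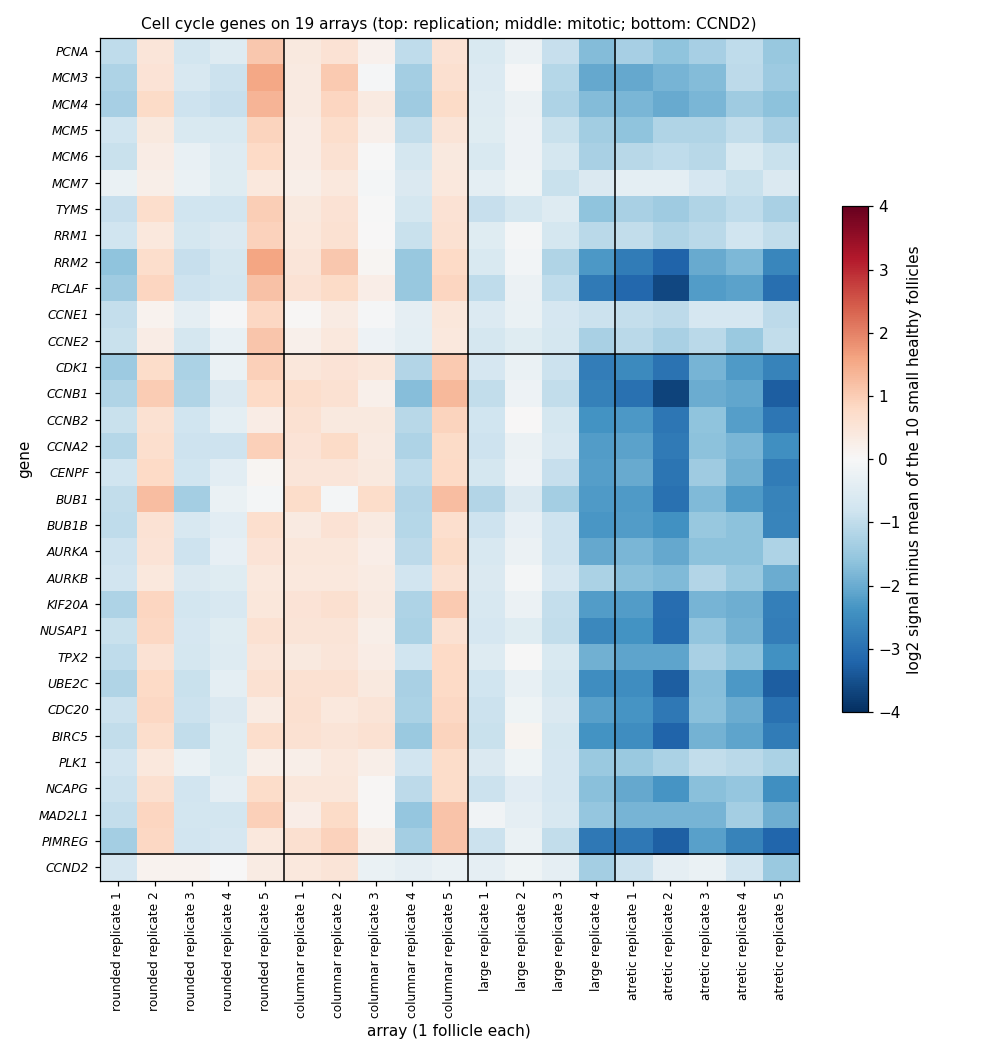
Log2 signal of 32 cell cycle genes (rows) on 19 arrays (columns, 1 follicle each), as the difference from the mean of the 10 small healthy follicles; lines separate the 4 groups of follicles and the replication genes (top), mitotic genes (middle) and CCND2 (bottom). The 5 atretic columns are blue for every gene, as are large replicates 1, 3 and 4. Large replicate 4 had the lowest signal among the large follicles in 31 of 32 genes. The small healthy columns fall into bluer and redder follicles within both types.

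Among the replication genes, PCLAF, a small partner of PCNA at the replication fork, had the largest difference. Its signal was 5.0, 4.5, 5.9, 6.0 and 5.1 in atretic replicates 1 to 5, 7.1, 7.9, 7.1 and 5.3 in large replicates 1 to 4 and 6.6 to 9.3 (median 8.55) over the small healthy follicles. PCLAF was 7.11-fold lower (log2 difference -2.83, SE 0.46, adjusted p = 0.00157) in atretic than in small healthy follicles, with means of 5.30 ± 0.64 (SD, n = 5) and 8.13 ± 1.03 (SD, n = 10). No atretic follicle reached the lowest small healthy one, and the two-sided exact permutation test gave p = 0.000333, the smallest that 3003 splits allow.

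Ribonucleotide reductase makes the building blocks of DNA, and its subunits differed in how far they fell. The small subunit RRM2, which limits the activity of the enzyme in S phase, read 4.7, 4.3, 5.5, 5.7 and 4.9 in the atretic, 6.9, 7.4, 6.3 and 5.2 in the large and 5.9 to 9.1 (median 7.8) in the small healthy follicles. It was 5.62-fold lower (log2 difference -2.49, SE 0.49, adjusted p = 0.00316), with no overlap between atretic and small healthy follicles. The large subunit RRM1 read 6.9, 6.7, 6.8, 7.1 and 6.9 in the atretic follicles and 7.0 to 8.8 (median 8.1) in the small healthy ones, and atretic replicate 4 overlapped the latter. RRM1 was 2.01-fold lower (log2 difference -1.01, SE 0.28, adjusted p = 0.016), at the edge of the 2-fold limit, and was the call most often lost under other settings (9 of them). Thymidylate synthase, TYMS, did not overlap: 5.5, 5.4, 5.6, 5.8 and 5.5 in atretic against 5.9 to 7.8 (median 7.0) in small healthy follicles, or 2.38-fold lower (log2 difference -1.25, SE 0.31, adjusted p = 0.00915).

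The MCM subunits form the helicase that opens the DNA, and PCNA is the clamp behind it. MCM4 read 5.5, 5.3, 5.5, 5.9 and 5.7 in the atretic and 5.9 to 8.7 (median 7.7) in the small healthy follicles, and was 3.36-fold lower (log2 difference -1.75, SE 0.43, adjusted p = 0.0086). MCM3 read 4.8, 5.0, 5.1, 5.8 and 5.4 against 5.5 to 8.4 (median 7.0) and was 3.1-fold lower (log2 difference -1.63, SE 0.42, adjusted p = 0.0112), and MCM5 read 4.8, 5.2, 5.2, 5.4 and 5.1 against 5.4 to 7.3 (median 6.65) and was 2.39-fold lower (log2 difference -1.26, SE 0.29, adjusted p = 0.00665). In each of these genes 4 of 5 atretic follicles were below every small healthy one, and atretic replicate 4 was the exception. MCM6, at 6.9, 7.0, 6.9, 7.4 and 7.1 in the atretic follicles and 7.1 to 8.8 (median 8.15) in the small healthy ones, was 1.92-fold lower (log2 difference -0.94, SE 0.25, adjusted p = 0.0119). MCM7 differed least of the 32 genes: 7.9, 7.9, 7.6, 7.4 and 7.7 in the atretic follicles lay against 7.7 to 8.7 (median 8.35) in the small healthy ones, and it was 1.49-fold lower (log2 difference -0.58, SE 0.18, adjusted p = 0.0218). These 2 subunits passed the adjusted p but not the 2-fold limit. PCNA read 7.4, 7.1, 7.4, 7.7 and 7.2 in the atretic and 7.7 to 9.8 (median 9.0) in the small healthy follicles, touching only at 7.7, and was 2.57-fold lower (log2 difference -1.36, SE 0.32, adjusted p = 0.00729).

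The E cyclins open S phase with CDK2. CCNE2 read 4.7, 4.5, 4.7, 4.3 and 4.8 in the atretic, 5.1, 5.3, 5.1 and 4.5 in the large and 4.9 to 6.9 (median 5.8) in the small healthy follicles. It was 2.28-fold lower (log2 difference -1.19, SE 0.26, adjusted p = 0.00493), and the atretic and small healthy follicles did not overlap (two-sided exact permutation p = 0.000999). CCNE1 was dim everywhere, at 2.9, 2.8, 3.2, 3.2 and 2.8 in atretic and 2.9 to 4.7 (median 3.85) in small healthy follicles. Its difference of -0.88 (SE 0.22, adjusted p = 0.00886) was short of 2-fold, and the atretic mean of 2.98 was under the detection threshold, so its size is uncertain.

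**Figure D2:**
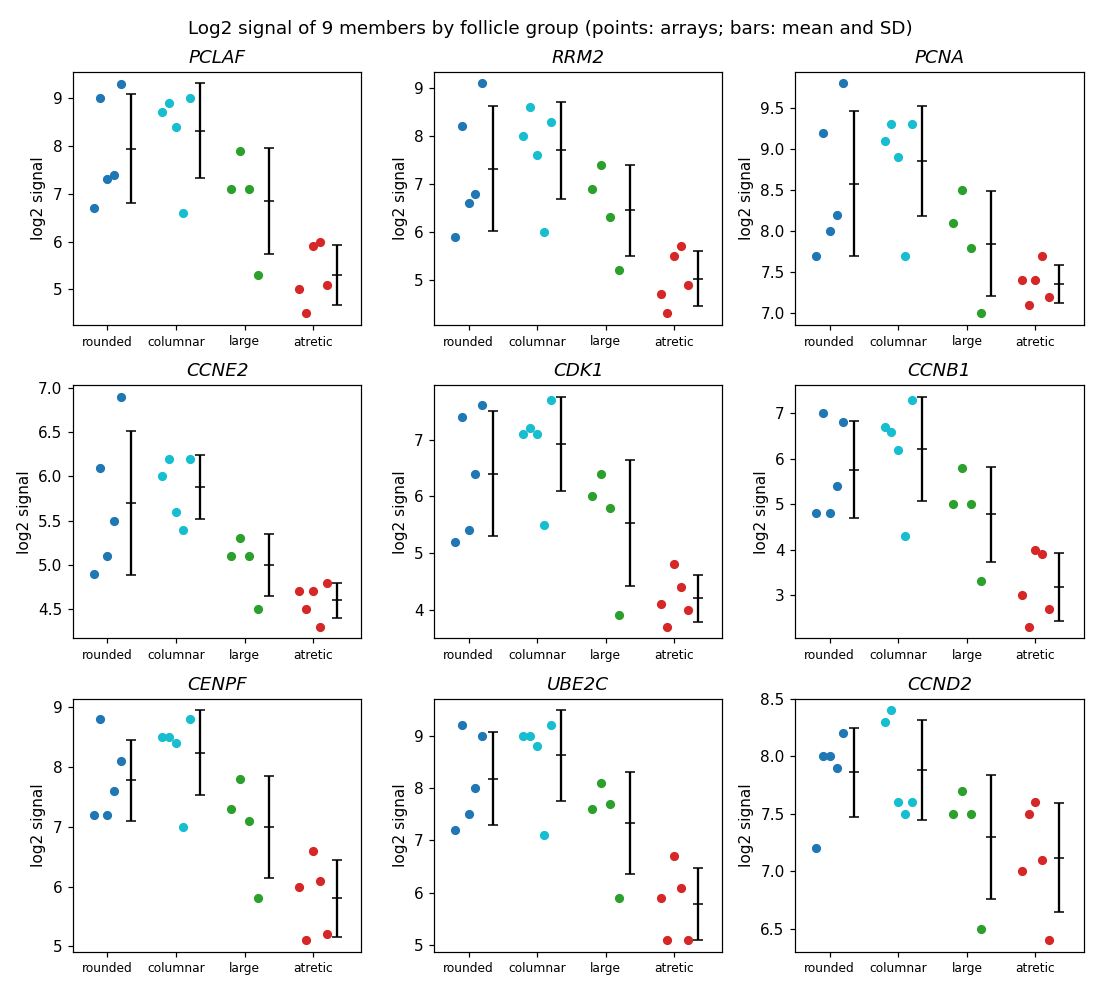
Log2 signal (y axis, a separate scale for each gene) of 9 cell cycle genes in the 4 groups of follicles; each point is 1 array and the bars beside the points are the mean and SD of the group. PCLAF, RRM2, CCNE2, CDK1, CCNB1, CENPF and UBE2C of the atretic follicles lie below every small healthy follicle, PCNA touches at 7.7, and CCND2 overlaps.

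The mitotic genes fell further on the log2 scale than most replication genes. Averaged over each array, the 19 mitotic genes were at 4.02 to 5.05 in atretic and 5.52 to 7.58 in small healthy follicles, and the 12 replication genes at 5.48 to 5.98 and 6.12 to 8.19. The group means differed by -2.20 for mitotic and -1.43 for replication genes, and this gap between the lists was not tested. Neither average overlapped between atretic and small healthy follicles.

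Cyclin B with CDK1 is the kinase that starts mitosis. CDK1 read 4.1, 3.7, 4.8, 4.4 and 4.0 in the atretic, 6.0, 6.4, 5.8 and 3.9 in the large and 5.2 to 7.7 (median 7.1) in the small healthy follicles. CDK1 was 5.5-fold lower (log2 difference -2.46, SE 0.41, adjusted p = 0.00187) in atretic than in small healthy follicles. Its partner CCNB1 read 3.0, 2.3, 4.0, 3.9 and 2.7 in the atretic, 5.0, 5.8, 5.0 and 3.3 in the large and 4.3 to 7.3 (median 6.4) in the small healthy follicles and was 7.01-fold lower (log2 difference -2.81, SE 0.49, adjusted p = 0.00188). The atretic follicles of CCNB1 straddled the detection threshold, whereas every small healthy follicle was above it. CCNB2, the other B cyclin, read 4.7, 4.1, 5.4, 4.8 and 4.1 in atretic against 5.9 to 7.9 (median 7.35) in small healthy follicles and was 5.21-fold lower (log2 difference -2.38, SE 0.34, adjusted p = 0.00135). CCNA2, the A cyclin of S phase and early mitosis, read 3.3, 2.6, 3.8, 3.6 and 3.0 against 4.2 to 6.4 (median 5.9) and was 4.53-fold lower (log2 difference -2.18, SE 0.39, adjusted p = 0.0021). The atretic follicles of CCNA2 straddled the threshold as well, so the sizes for CCNB1 and CCNA2 are uncertain. Counting CCNA2 with the replication genes leaves 18 mitotic genes. For CDK1 and the B and A cyclins alike, all 5 atretic follicles were below all 10 small healthy ones.

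At the kinetochore, CENPF read 6.0, 5.1, 6.6, 6.1 and 5.2 in the atretic, 7.3, 7.8, 7.1 and 5.8 in the large and 7.0 to 8.8 (median 8.25) in the small healthy follicles. This large coiled-coil protein of the outer kinetochore was 4.63-fold lower (log2 difference -2.21, SE 0.34, adjusted p = 0.00143), with means of 5.80 ± 0.64 (SD, n = 5) and 8.01 ± 0.70 (SD, n = 10). BUB1 and BUB1B, kinases of the spindle checkpoint, also fell without overlap. BUB1 read 3.7, 3.0, 4.2, 3.7 and 3.3 in the atretic against 4.6 to 7.2 (median 5.9) in the small healthy follicles and was 5.24-fold lower (log2 difference -2.39, SE 0.42, adjusted p = 0.00192). BUB1B read 4.9, 4.7, 5.6, 5.5 and 4.5 against 6.0 to 7.8 (median 7.5) and was 4.26-fold lower (log2 difference -2.09, SE 0.33, adjusted p = 0.00152). MAD2L1, which carries the checkpoint signal to CDC20, was the only mitotic gene with overlap: atretic follicles were at 4.9, 4.9, 4.9, 5.4 and 4.8, columnar replicate 4 at 5.2 and all other small healthy follicles at 5.8 or above. It was 3.41-fold lower (log2 difference -1.77, SE 0.39, adjusted p = 0.00584).

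Mitotic kinases and a partner of AURKB were lower too. AURKA, which acts at the centrosomes, read 4.3, 4.1, 4.5, 4.5 and 4.9 in the atretic and 5.1 to 6.9 (median 6.5) in the small healthy follicles and was 3.2-fold lower (log2 difference -1.68, SE 0.30, adjusted p = 0.00203). AURKB read 4.7, 4.6, 5.2, 4.9 and 4.4 against 5.6 to 7.0 (median 6.75) and was 3.07-fold lower (log2 difference -1.62, SE 0.25, adjusted p = 0.00152). PLK1, needed for spindle poles and cytokinesis, read 4.6, 4.8, 5.1, 5.0 and 4.8 against 5.3 to 6.8 (median 6.3) and, at 2.31-fold lower (log2 difference -1.21, SE 0.23, adjusted p = 0.00279), had the smallest difference of the mitotic genes. BIRC5 (survivin) works with AURKB in the chromosomal passenger complex and read 4.3, 3.6, 4.9, 4.7 and 4.0 against 5.3 to 7.7 (median 7.35). BIRC5 was 5.66-fold lower (log2 difference -2.50, SE 0.40, adjusted p = 0.00155). In none of these kinases, nor in BIRC5, did an atretic follicle reach the lowest small healthy one.

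Genes that build the spindle and end mitosis followed. UBE2C, the ubiquitin-conjugating enzyme of the anaphase-promoting complex, read 5.9, 5.1, 6.7, 6.1 and 5.1 in the atretic, 7.6, 8.1, 7.7 and 5.9 in the large and 7.1 to 9.2 (median 8.9) in the small healthy follicles and was 6.15-fold lower (log2 difference -2.62, SE 0.40, adjusted p = 0.00143). CDC20, which activates that complex, read 4.8, 4.3, 5.5, 5.2 and 4.2 in atretic against 5.9 to 8.0 (median 7.55) in small healthy follicles and was 5.17-fold lower (log2 difference -2.37, SE 0.36, adjusted p = 0.00149). PIMREG, a regulator of the metaphase to anaphase transition, read 2.8, 2.4, 3.5, 3.0 and 2.5 against 4.3 to 6.8 (median 6.0) and was 7.11-fold lower (log2 difference -2.83, SE 0.41, adjusted p = 0.00139). The atretic mean of PIMREG, 2.84, was under the detection threshold, and its size is therefore uncertain. All 3 genes were free of overlap.

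Genes of microtubule-binding spindle proteins and of a condensin subunit were also lower on every atretic array than on any small healthy one. NUSAP1 read 5.2, 4.5, 6.0, 5.7 and 4.8 in the atretic and 6.3 to 8.4 (median 7.95) in the small healthy follicles and was 5.06-fold lower (log2 difference -2.34, SE 0.35, adjusted p = 0.00143). TPX2, which activates AURKA on the spindle, read 5.4, 5.4, 6.2, 5.9 and 5.1 against 6.5 to 8.3 (median 7.85) and was 3.76-fold lower (log2 difference -1.91, SE 0.31, adjusted p = 0.00155). The kinesin KIF20A, which acts in cytokinesis, read 4.2, 3.4, 4.6, 4.5 and 3.7 against 5.2 to 7.5 (median 6.85) and was 5.17-fold lower (log2 difference -2.37, SE 0.39, adjusted p = 0.00171). NCAPG, a subunit of the condensin that compacts chromosomes, read 4.1, 3.8, 4.5, 4.6 and 3.7 against 5.1 to 6.9 (median 6.4) and was 4.06-fold lower (log2 difference -2.02, SE 0.31, adjusted p = 0.00149).

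CCND2 links growth signals to the cycle as a D-type cyclin, a partner of the G1 kinases. It read 7.0, 7.5, 7.6, 7.1 and 6.4 in the atretic, 7.5, 7.7, 7.5 and 6.5 in the large and 7.2 to 8.4 (median 7.95) in the small healthy follicles. CCND2 was 1.68-fold lower (log2 difference -0.75, SE 0.21, adjusted p = 0.0156) in atretic than in small healthy follicles, short of the 2-fold limit, and 2 of the 5 atretic follicles lay within the small healthy range.

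Ranked by log2 difference among 7351 genes, the cell cycle genes stood among the largest falls in atretic follicles: PCLAF was at rank 1, PIMREG at 2, CCNB1 at 3, UBE2C at 6, BIRC5 at 9 and RRM2 at 10. The rank of PIMREG rests on an atretic mean under the detection threshold and is as uncertain as the size of its difference. The rank of CCNB1, whose atretic follicles straddled that threshold, is uncertain too. The 30 largest falls held 15 of the 32 genes, and the median rank of the 32 was 36. The lowest in rank were CCND2 at 287 and MCM7 at 473. The other 15 places held 12 further genes of the cell cycle lists described next, led by UHRF1 at rank 4 and CDCA8 at rank 5. The last 3 places held genes absent from these lists, SHCBP1 (-2.56), SKA1 (-2.13) and LOC767968 (-2.09). LOC767968 did not pass the test (adjusted p = 0.103), and absence from the lists does not show that a gene has no part in the cycle.

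A second measurement was at hand for some of the genes. The 32 genes had 11 dimmer probe sets, of which 6 passed the filter, and all 6 were lower in atretic than in small healthy follicles at an adjusted p under 0.05. AURKB (-2.42), TPX2 (-1.97), KIF20A (-1.90), AURKA (-1.79) and MCM6 (-1.12) were at least 2-fold lower by them, and PIMREG (-0.71) was not. The dimmer probe set of PIMREG thus showed a much smaller difference than the brighter one, whereas those of AURKB (-2.42 against -1.62) and MCM6 showed larger ones.

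Against the rounded follicles alone, the count of called genes dropped from 28 to 19 in the smaller comparison of 5 with 5. Calls in replication dropped from 9 to 1, PCLAF, with adjusted p from 0.0534 (RRM2) to 0.111 (RRM1) for the other 8, and 18 of 19 mitotic genes stayed called, MAD2L1 being lost at 0.0528. The median log2 differences were then -1.11 for replication and -2.10 for mitotic genes. Of 15203 probe sets tested there, 0.684% were called lower. Against the columnar follicles alone 29 genes were called, as were 1.92% of 15403 probe sets in the lower direction.

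Cell cycle genes outside the list were counted in the same comparison. Of 39 other replication factors tested, 27 were lower by adjusted p, 14 of them at least 2-fold, and 1 was higher. The largest differences were in UHRF1, which keeps DNA methylation through replication (-2.80, SE 0.51, adjusted p = 0.00242), and the histone chaperone ASF1B (-2.38, SE 0.38, adjusted p = 0.00157). Among the others called were the chromatin assembly subunit CHAF1A (-1.73), the licensing factors CDC6 (-1.70) and CDT1 (-1.28), thymidine kinase TK1 (-1.67) and the flap endonuclease FEN1 (-1.52). DUT, ORC1, POLE2, CHAF1B, RPA3, GINS3 and RPA2 were the other 7 at this limit. The atretic means of CDC6 (2.38), ORC1 (2.30) and CHAF1B (2.86) were under the detection threshold, so the sizes for these 3 are uncertain. The exception was ORC4 of the origin recognition complex, which was higher (0.38, adjusted p = 0.0148). Of its partners, ORC1 (-1.39) was among those called lower, ORC6 (-0.70, adjusted p = 0.0156) was lower by adjusted p alone, and ORC2 (-0.01), ORC3 (-0.20) and ORC5 (-0.26) did not pass the test. The median difference of these factors was -0.82.

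All 43 other mitotic factors tested were lower by adjusted p, 35 of them at least 2-fold, with a median of -1.84. CDCA8, a passenger complex subunit, led with -2.66 (SE 0.45, adjusted p = 0.00187), followed by CDCA2 (-2.52), the spindle pole protein ASPM (-2.45), CDCA3 (-2.40) and separase, ESPL1 (-2.37). Others were the kinetochore proteins SPC24 (-2.32), NDC80 (-2.06), CENPN (-1.97), KNTC1 (-1.84) and ZWINT (-1.62), the condensin subunits NCAPH (-2.20), NCAPG2 (-1.66), SMC4 (-1.20) and NCAPD3 (-1.04), and the kinesins KIF2C (-2.36), KIF4A (-1.92), KIF22 (-1.82), KIFC1 (-1.73) and KIF23 (-1.58). The remaining 16 called factors were SPAG5, MELK, CKS2, CDCA7, SGO1, FAM83D, TACC3, LMNB1, CCNF, HMMR, ECT2, CKAP2, TROAP, CKS1B, HMGB2 and CDC25C, with differences from -2.27 (SPAG5) to -1.10 (CDC25C). For 6 of the 35, NDC80, KNTC1, SGO1, ESPL1, KIF2C and CDC25C, the atretic mean was under the detection threshold (2.40 to 2.96), so that the sizes of these differences are uncertain.

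Genes that control entry into the cycle differed less. Of 8 other G1 cyclins and kinases, none was called at 2-fold and 4 were lower by adjusted p: CCND3 (-0.76, adjusted p = 0.0028), CDK2 (-0.67), CDK4 (-0.53) and CCND1 (-0.48). Of 8 transcription factors of the cycle, MYBL2 was called (-1.09, SE 0.21, adjusted p = 0.00298) and E2F1 (-0.55, with an atretic mean of 2.34, under the detection threshold) and TFDP1 (-0.51) passed the adjusted p alone. The 10 genes that restrain the cycle moved both ways. The checkpoint kinase CHEK1 was called lower (-1.45, SE 0.39, adjusted p = 0.014), WEE1 (-0.92) and CDKN2C (-0.74) were lower by adjusted p, and RBL2 (0.47, adjusted p = 0.00856) and the stress gene GADD45A (0.78, SE 0.20, adjusted p = 0.00962) were higher. CHEK1 is itself made mostly in cycling cells. The median over these 10 genes was 0.02. Of all 15470 probe sets tested, 2331 were lower and 2608 higher by adjusted p, and the 2 higher genes of 10 were near that share.

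Among the 165 named genes called lower in atretic follicles by any probe set, 29 were of the 32 and 51 were other genes of the cell cycle lists, together 48.5%, whereas 1.90% of all 7351 named genes tested were on these lists. The count is 29 here and 28 above because MCM6 was called by its dimmer probe set.

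**Figure D3:**
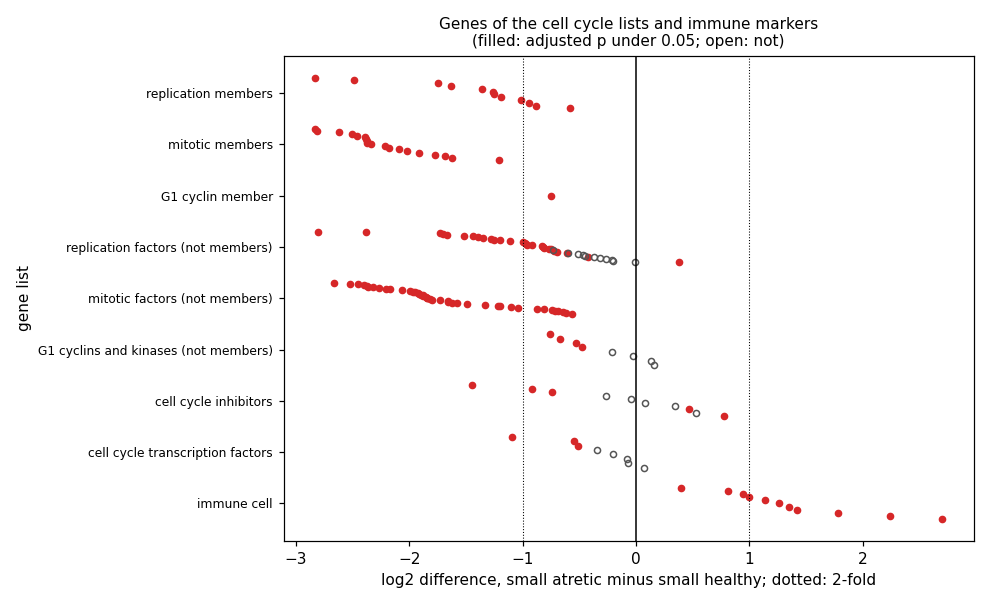
Log2 difference between small atretic and small healthy follicles (x axis) for each tested gene of the cell cycle lists and of the immune marker list (rows); filled points have an adjusted p under 0.05 and the dotted lines mark 2-fold. All 19 mitotic genes and all 43 other mitotic factors lie to the left of 0, the inhibitors lie on both sides, and the 11 immune markers lie to the right.

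Markers of other cells moved in the same comparison. Of all 15470 probe sets tested, 2608 were higher by adjusted p, and 322 were also at least 2-fold higher. All 11 immune markers measured were higher in atretic follicles by adjusted p and 8 at least 2-fold, led by CD68 (2.70, SE 0.46, adjusted p = 0.00187) and CD14 (2.24, SE 0.37, adjusted p = 0.00171), both of macrophages, and with TYROBP (1.78), C1QB (1.42), C1QA (1.35), LAPTM5 (1.26), AIF1 (1.14) and PTPRC (1.0) after them. Averaged per array, they were at 5.03 to 6.37 in atretic and 3.83 to 5.01 in small healthy follicles. Of 7 granulosa markers tested, INHBA was called lower (-1.47), AMH was lower by adjusted p (-0.97) and GATM was higher (0.85), and the mean of all 11 granulosa markers was 4.85 to 6.24 per array in atretic against 5.64 to 6.43 in small healthy follicles. Of the 6 theca markers CYP11A1, which starts steroid synthesis, was called lower (-1.31, SE 0.29, adjusted p = 0.00529) and 5 did not pass the test. Called higher were CLDN5 (1.32) among 8 endothelial markers and MYH11 (1.12) among 7 smooth muscle markers, of which DES and MYLK also passed the adjusted p. Of 7 fibroblast markers PDGFRA and FBLN1 were higher by adjusted p (both 0.81), and 4 of 5 red blood cell markers stayed under the filter and the other one did not pass the test. The part of these shifts in the difference of the cell cycle genes was not tested.

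In large healthy follicles every one of the 32 genes had a lower mean than in small healthy follicles, but none passed the adjusted p. The median log2 difference was -0.94 over the 32 genes, -0.83 over the replication genes and -0.99 over the mitotic genes, against -0.01 over all 15570 probe sets. At an unadjusted p under 0.05, 24 genes were lower (8 of replication, 15 of mitosis and CCND2), which 12.3% of all probe sets also were. Of all probe sets, 0.983% were lower by adjusted p and 0.0771% were also 2-fold lower. No gene of the 32 had all 4 large follicles below all small healthy ones, as 0.488% of all probe sets had. Adjusted p ranged from 0.118 to 0.378.

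The smallest p-values were those of BUB1 and NUSAP1. BUB1 read 4.8, 5.4, 4.6 and 3.7 in the large follicles, against 4.6 to 7.2 (median 5.9) in the small healthy ones, and its difference was -1.35 (SE 0.48, adjusted p = 0.118) with a 95% interval of -2.37 to -0.32. NUSAP1 read 6.9, 7.1, 6.6 and 5.0 against 6.3 to 8.4 (median 7.95), a difference of -1.18 (SE 0.43, adjusted p = 0.123). In both genes 3 large follicles lay within the small healthy range and replicate 4 lay below it. CCNE2 had the smallest p of the replication genes, with 5.1, 5.3, 5.1 and 4.5 in the large follicles and a difference of -0.79 (SE 0.29, adjusted p = 0.128) and an interval of -1.42 to -0.16. TYMS read 5.9, 6.1, 6.3 and 5.2 in the large follicles and differed by -0.94 (SE 0.36, adjusted p = 0.142). MCM7 read 7.9, 8.1, 7.4 and 7.7 and differed by -0.51 (SE 0.20, adjusted p = 0.147), and CCNE1 read 3.3, 3.6, 3.2 and 3.0 and differed by -0.59 (SE 0.24, adjusted p = 0.161).

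Further genes described in full for atretic follicles read as follows. CENPF had means of 7.0 ± 0.85 (SD, n = 4) in the large and 8.01 ± 0.70 (SD, n = 10) in the small healthy follicles, a difference of -1.01 (SE 0.39, adjusted p = 0.141) and an interval of -1.85 to -0.17. BUB1B differed by -1.08 (SE 0.41, adjusted p = 0.13), NCAPG by -0.91 (SE 0.35, adjusted p = 0.141) and CCND2 by -0.57 (SE 0.23, adjusted p = 0.157). PCLAF, at -1.28 (SE 0.55, adjusted p = 0.175), had an interval of -2.46 to -0.10. The intervals are wide, and the failure to pass the test does not show that large and small follicles were alike.

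Markers of other cells differed between large and small healthy follicles as well. Of all 15570 probe sets tested, 404 were higher by adjusted p, and 98 were also at least 2-fold higher. Of 7 smooth muscle markers, DES was called higher in the large ones (1.25, SE 0.25, adjusted p = 0.0187) and MYLK (0.51) was higher by adjusted p alone. Of 7 fibroblast markers COL1A1 (0.77) and COL1A2 (0.40) were higher by adjusted p, as were AIF1 (0.68) and LAPTM5 (0.90) of 11 immune markers. Of 9 granulosa markers tested NR5A2 (0.90) was higher and AMH (-0.66) lower by adjusted p. CYP19A1 (1.495, SE 0.51, adjusted p = 0.109) and INHBA (1.04, SE 0.54, adjusted p = 0.244) had higher means in large follicles but did not pass in limma. Averaged per array, smooth muscle markers were at 8.20 to 9.19 in large and 7.29 to 8.44 in small healthy follicles, endothelial markers at 5.30 to 5.91 and 4.86 to 5.33, and immune markers at 4.66 to 5.52 and 3.83 to 5.01. The part of these markers in the difference of the cell cycle genes was not tested.

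The 4 large follicles were unlike one another. Replicate 2 had the highest signal in 30 of the 32 genes and replicate 4 the lowest in 31. Replicates 1 and 2 lay within the small healthy range in all 32 genes and replicate 3 in 31, whereas replicate 4 did so in 3. The mitotic genes averaged 5.96, 6.46, 5.89 and 4.51 in replicates 1 to 4, and the replication genes 6.51, 6.88, 6.25 and 5.57. Immune markers averaged 5.52, 4.85, 4.66 and 5.10 on the same arrays and poly-A controls 5.29, 5.17, 5.36 and 5.75. Between the groups, poly-A controls averaged 1.16 higher in large than in small healthy follicles, and the part of this in the difference of the cell cycle genes was not tested. With any 1 follicle left out, 0 of the 32 genes were called, and a linear model without moderation also called 0. The count was also 0 without large replicate 2 and columnar replicate 1, left out together as the arrays with most CYP19A1.

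Of the other cell cycle genes, only the G1 cyclin CCND3 (-0.49, SE 0.11, adjusted p = 0.0316) and CCNH, the cyclin of the CDK-activating kinase (-0.42, SE 0.11, adjusted p = 0.0441), were lower in large follicles by adjusted p, neither 2-fold. Of 43 other mitotic factors 0 passed in limma (median -0.89, smallest adjusted p = 0.083 for HMGB2) and 28 were lower at an unadjusted p under 0.05. Of 39 other replication factors 0 passed (median -0.56) and 15 were lower at that unadjusted p, as were 4 of 8 transcription factors (median -0.33) and 0 of 10 inhibitors (median 0.02).

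**Figure D4:**
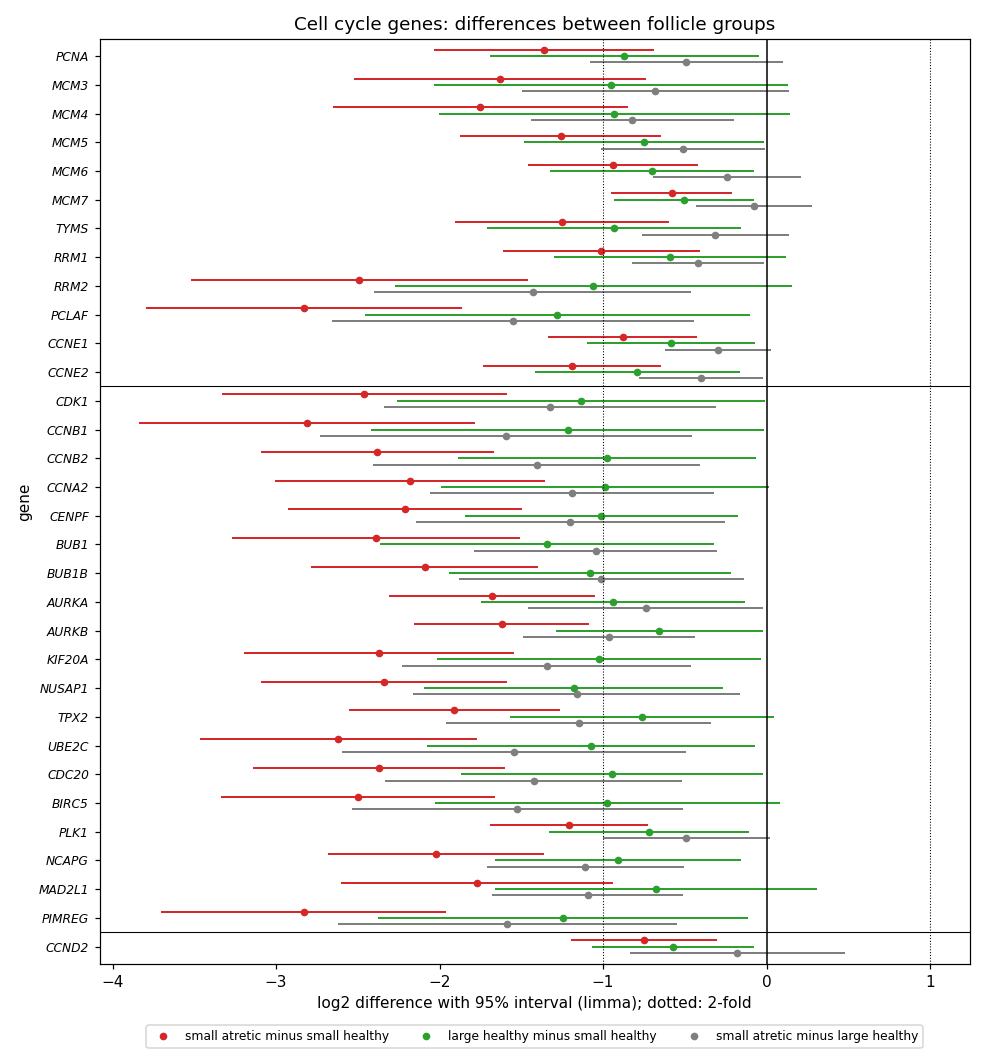
Log2 differences between groups of follicles (x axis) with their 95% intervals from limma for each of the 32 cell cycle genes (rows); red, small atretic minus small healthy; green, large minus small healthy; grey, small atretic minus large. All red intervals lie below 0, and 24 green and 24 grey intervals do so before adjustment. The red and green rows share the small healthy follicles, the red and grey rows the atretic follicles, and the green and grey rows the large follicles.

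Atretic and large follicles were then compared with each other, where size and health differ together. All 32 genes had a lower mean in the atretic follicles, with a median log2 difference of -1.07 (-0.46 for replication and -1.19 for mitotic genes, 0.02 over all 15326 probe sets). None of the genes passed the adjusted p, and 0% of all probe sets passed it. At an unadjusted p under 0.05, 24 genes were lower (6 of replication and 18 of mitosis), as were 8.3% of all probe sets. MAD2L1 had the smallest p, at 4.9, 4.9, 4.9, 5.4 and 4.8 in atretic and 6.6, 6.4, 6.1 and 5.2 in large follicles, a difference of -1.10 (SE 0.26, adjusted p = 0.141) with an exact permutation p of 0.0159. NCAPG (5.3, 5.7, 5.5 and 4.5 in large follicles) differed by -1.11 (SE 0.27, adjusted p = 0.141) and AURKB (5.8, 6.3, 5.7 and 5.1) by -0.97 (SE 0.23, adjusted p = 0.141). Of the replication genes, RRM2 differed by -1.43 (SE 0.43, adjusted p = 0.167) and PCLAF by -1.55 (SE 0.50, adjusted p = 0.176), while MCM7 (-0.08), MCM6 (-0.24) and CCND2 (-0.18) were nearest to 0.

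One follicle decided the count of calls, large replicate 4. It lay within the range of the atretic follicles in 19 of 19 mitotic and 9 of 12 replication genes, whereas large replicates 1, 2 and 3 did so in 0 of the mitotic genes and in 2, 0 and 4 of the replication genes. CDK1, for example, was 3.9 in large replicate 4 against an atretic mean of 4.20, and UBE2C 5.9 against 5.78. Without it, 14 of the 32 genes and 0.519% of 15207 probe sets were called lower in atretic than in large follicles, and with any other follicle left out 0 of the 32 genes were.

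Between rounded and columnar follicles, which were prepared alike, none of the 32 genes passed a test. All 32 means were lower in rounded follicles, with a median log2 difference of -0.37 (-0.28 for replication and -0.46 for mitotic genes), but 0 genes passed an unadjusted p under 0.05 in limma, as 0.597% of all probe sets did in the lower direction, and 0% of all probe sets passed the adjusted p in either direction. PIMREG differed most (-0.62 (SE 0.56, adjusted p = 0.996), interval -1.83 to 0.59), then BUB1 (-0.58) and KIF20A (-0.54), and CCND2 least (-0.02). The smallest exact permutation p was 0.341, for CENPF, where 252 splits would allow 0.00397. With 1 follicle left out, 28 to 32 of the genes stayed lower in the rounded follicles.

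The spread within the small healthy follicles was wide. The SD of the 10 follicles had a median of 0.75 over the 32 genes (0.71 for replication and 0.80 for mitotic genes), against 0.21 over all 15570 probe sets. It was largest in RRM2 (1.12, a range of 3.2 or from 5.9 to 9.1), CCNB1 (1.07, from 4.3 to 7.3), PCLAF (1.03, from 6.6 to 9.3) and MCM4 (1.03, from 5.9 to 8.7). CCND2 (0.39) and MCM7 (0.39) varied least, with an SD still above that of 85.5% and 85.7% of all probe sets.

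The genes were high or low together from follicle to follicle. Columnar replicate 4 and rounded replicates 1 and 4 were below the median of the 10 follicles in all 32 genes and rounded replicate 3 in 31, whereas rounded replicate 2 was above it in 32, columnar replicate 5 in 31, columnar replicate 2 in 30, columnar replicate 1 in 28 and rounded replicate 5 in 27. Columnar replicate 3 was nearest the middle, below the median in 23 genes. Low and high follicles were thus found in both types. Columnar replicate 4 had the lowest signal in 23 genes and rounded replicate 1 in 13, ties counted for both, and columnar replicate 5 had the highest in 18 and rounded replicate 5 in 15.

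The highest follicles differed in kind. Rounded replicate 5 had the highest replication mean of all 19 arrays (8.19, with RRM2 at 9.1, MCM4 at 8.7 and CCNE2 at 6.9) but a mitotic mean of 7.24. Columnar replicate 5 had the highest mitotic mean (7.58, with CCNB1 at 7.3 and KIF20A at 7.5) at a replication mean of 7.72, and rounded replicate 2 stood close to it at 7.43 and 7.62. Of the small healthy follicles, columnar replicate 4 had the lowest mitotic mean (5.52, with a replication mean of 6.18) and rounded replicate 1 the lowest replication mean (6.12). Steroidogenic theca markers averaged 7.62 on rounded replicate 5, the lowest small healthy array, and 9.12 on columnar replicate 4, the highest, and immune markers 4.85 and 4.35. How far these markers go with the spread was not tested.

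**Figure D5:**
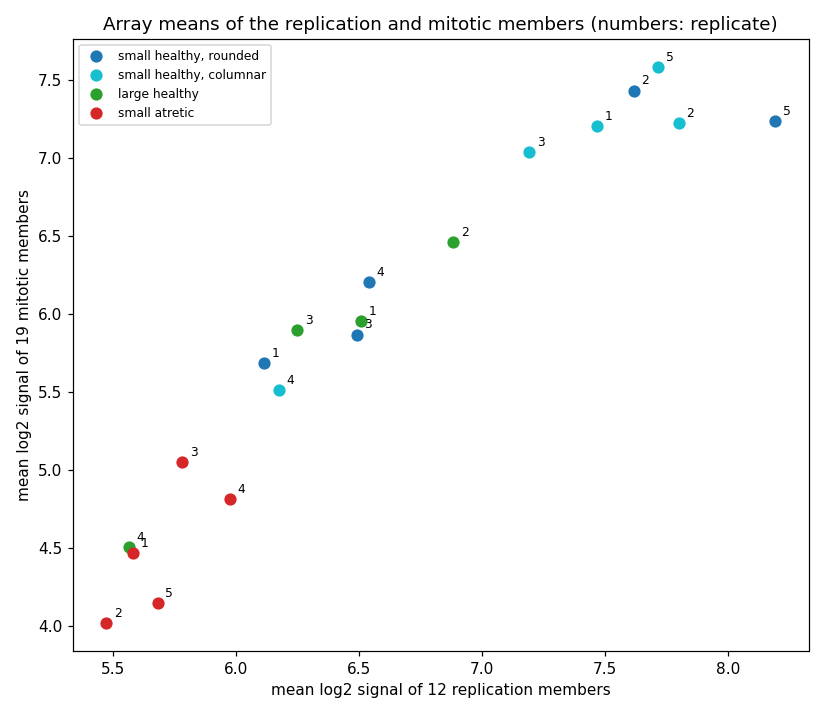
Mean log2 signal per array of the 12 replication genes (x axis) and of the 19 mitotic genes (y axis), with 1 point per follicle, coloured by group and numbered by replicate. The 5 atretic follicles and large replicate 4 lie at 4.02 to 5.05 on the mitotic axis, below all small healthy follicles, and rounded replicate 5 lies furthest to the right at 8.19.

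The atretic follicles were more alike than the small healthy ones in the average of the 32 genes, with an SD of 0.32 over 5 follicles against 0.74 over 10, a difference that was not tested. Atretic replicate 3 had the highest signal of the 5 in 18 genes and replicate 4 in 12, and replicate 2 had the lowest in 19 and replicate 5 in 10, again with ties counted for both. Each of replicates 1, 2, 3 and 5 lay below every small healthy follicle in 30 genes and replicate 4 in 24. Replicate 3, with the highest mitotic mean (5.05), had the lowest immune mean of the atretic follicles (5.03), while replicate 4, next at 4.82, had an immune mean of 6.35. Replicate 3 also had the highest granulosa (6.24) and steroidogenic theca (8.85) means of the 5. Replicate 5, with a mitotic mean of 4.15, had the lowest of both (4.85 and 6.28). How far these markers go with the order of the follicles was not tested.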

How the data were processed

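Theca interna RNA from 19 follicles was hybridised to Affymetrix bovine arrays. The log2 values were deposited by the authors after RMA summarization and quantile normalization, in steps of 1 decimal, and the submitters' processing notes name Partek 6.5. No source used here states whether one normalization covered all arrays. Groups came from the sample titles.

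Of 24127 probe sets, 13317 have 1 gene symbol, 86 several and 10724 none. A gene was read from its brightest probe set over the 19 arrays. The filter kept a probe set if its log2 signal exceeded 3 in 50% or more of the arrays of any follicle type compared, and the 111 controls were dropped. Groups were compared in limma 3.58.1 (R 4.3.3), and p-values were adjusted by the Benjamini-Hochberg method across every probe set tested. Called means an adjusted p under 0.05 and at least 2-fold. Rounded and columnar follicles were compared in a fit with the large ones. Exact permutation tests were two-sided. The fits, the adjustment and the call rule were tested on simulated arrays with known changes. The filter, the choice of probe sets and the permutation tests were not.

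All measured genes of the list are named; of other cell cycle and marker lists, those called in a comparison, and some others where a sentence turns on them. The genes and lists were chosen with earlier results of these data known, so their counts are no independent evidence. Marker lists were of granulosa, steroidogenic theca, endothelial, smooth muscle, immune, fibroblast and red blood cells. Arrays hold no counts, and precision is set by how many there are. Alternatives covered the call rule, filter, model, centring, replicate numbers, probe set choice and samples left out. No sequence is printed, since promoters and proteins were not analysed here.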

Additional observations from a re-analysis of the deposited data

Results flagged for a closer look

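In 16 of 128 combinations of gene and group (32 genes in rounded, columnar, large and atretic follicles), the highest or the lowest follicle stood apart from the other 3 or 4 by most of the range of the group. Chance sets about 1 in 20 such groups apart, and the genes of 1 follicle are not independent of each other.

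Columnar replicate 4 accounted for 14 of them, as the lowest of the 5 columnar follicles. In replication genes its log2 signal was 7.7 for PCNA (next follicle 8.9), 5.9 for MCM4 (7.7) and 6.6 for PCLAF (8.4). For CDK1 it was 5.5 (7.1), for CCNB2 5.9 (7.4) and for CCNA2 4.2 (5.8). Among kinetochore, checkpoint and kinase genes it was 7.0 for CENPF (8.4), 6.0 for BUB1B (7.5), 5.1 for AURKA (6.4) and 5.6 for AURKB (6.7). It was 6.3 for NUSAP1 (7.8), 7.1 for UBE2C (8.8), 5.9 for CDC20 (7.6) and 5.3 for BIRC5 (7.3).

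Apart from that follicle, MAD2L1 was highest in atretic replicate 4, at 5.4 with the next at 4.9, and CCND2 was lowest in large replicate 4, at 6.5 with the next at 7.5.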

How the results depend on the processing

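The count of 28 genes called lower in atretic than in small healthy follicles was 19 to 32 under the alternatives tried, and 27 to 29 with 1 follicle left out. The 0 calls between large and small healthy and between rounded and columnar follicles held under every alternative. Between atretic and large follicles 0 genes were called under every alternative except leaving out large replicate 4, so that the range with 1 follicle left out was 0 to 14. No called gene changed its direction. In comparisons without calls, 28 to 32 of the 32 genes stayed lower in rounded than in columnar and 31 or 32 in atretic than in large follicles where 1 follicle was left out. Over all probe sets, the 569 calls between atretic and small healthy follicles became 151 against the rounded follicles alone and 1783 at 1.5-fold, the 110 between large and small healthy follicles became 12 against the rounded follicles alone and 54 without moderation, and the 0 between atretic and large follicles became 43 in a fit of all 19 arrays and 92 without large replicate 4. Whether replicate numbers pair the follicles was not decided. Of 27 same-numbered pairs of arrays, 10 had deviations that correlated over 0.1 (range -0.32 to 0.56). In 18 of 54 combinations of an array and another group, the array correlated best with its own number there. Such matches also arise by chance in about 1 of 4 or 5 such combinations, and the number found was not tested against this. The highest correlations were between rounded and columnar replicates 4 (0.56), columnar and large replicates 4 (0.46) and rounded and columnar replicates 5 (0.45). Columnar replicate 4, large replicate 4 and both replicates 5 are among the low and high follicles described above, so these may not be independent. With the replicate block 28 genes were called in atretic against small healthy follicles and 0 in each other comparison. Signals near the detection threshold, as in CCNE1, PIMREG, CCNB1, CCNA2 and 9 called factors outside the list, limit the size of a difference. The 4 large follicles limit what could pass there.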
